A study of Mus musculus with 8 samples.

Results

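The Cfap genes (cilia and flagella associated proteins) were followed in the adult mouse testis. Members were taken as every row of the expression table whose Ensembl identifier carries a mouse symbol that begins with Cfap and a digit, and 31 of 24988 genes met this rule. Total RNA of adult testis was sequenced in 8 libraries, 4 labelled Kpna2-/- (knockout) and 4 labelled WT (wild type), with 31133443 to 37797812 reads assigned to genes in each. Kpna2 codes for an importin alpha, which links cargo proteins to nuclear import, and the design compares gene expression in the knockout testis with that in the wild-type testis. The labels do not give the strain, the exact age or the design of the deleted allele, nor whether each library is a separate animal. The p-values therefore measure only the spread between these libraries, which may be technical.

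The sperm tail is a single long flagellum built around the axoneme, a ring of microtubule doublets around a central pair. Dynein arms on the doublets make them slide, and radial spokes, the central apparatus and small regulatory complexes set when each arm is active. The proteins named Cfap were grouped by their presence in cilia and flagella rather than by descent, so that they sit in all of these structures, and defects in several of them are a known cause of malformed sperm tails and male infertility. In the testis such genes are read mainly in spermatocytes and spermatids, which build the tail.

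Kpna2 itself was not lower under the knockout label. It stood at 13.9 ± 1.11 CPM (the authors' scaled read counts, named CPM in their file; SD, n = 4) for the wild-type label and 19.2 ± 2.76 CPM for the knockout label, with no overlap between the groups. The margin was narrow, between 15.1 CPM in wild-type replicate 2 and 15.3 CPM in knockout replicate 1. The exact two-sided permutation test gave p = 0.029, the smallest that 70 assignments allow. One value per gene cannot tell which exons the reads came from, so all directions below are those of the libraries labelled knockout.

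In these testes the Cfap genes as a group stood at nearly the same level under both labels, and a few members changed. Cfap61, a protein of the radial spoke base, fell by 26.7%, and Cfap44, part of the tether of an inner dynein arm, fell by 24.5%. Cfap100, which regulates inner dynein arms, rose by 23.7%. Cfap74 of the central apparatus and Cfap126, which lines the inside of the doublets, fell by 10.2% and by 9.8%. The remaining 26 members did not pass the test. The test was limma on log2(CPM + 0.5), with Benjamini-Hochberg adjustment over the 22027 genes that averaged 0.5 CPM or more and a threshold of 0.05. Fold changes on this scale are knockout minus wild-type label and are slightly understated in low genes.

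The count of 1 higher and 4 lower, 5 of 31 (16.1%), lies near the background, since limma called 16.9% of all tested genes, 8.62% higher and 8.32% lower. The count fell to 3 of 31 (9.68%), with 2 lower, when knockout replicate 1, 2 or 4 or wild-type replicate 1, 2 or 4 was left out, where 12.7% to 16.2% of all genes were called. The count was also 3, with 2 lower, without the variance trend and with replicate number as a block. Of all genes, 14.5% and 15.6% were called in these 2 settings. All 31 members passed the filter on low values. Their log2 fold changes ran from -0.45 to 0.31 with a median of -0.0052, beside a median of -0.0100 over all tested genes, and 14 were above and 17 below 0. The median size of a difference, regardless of sign, was 0.086 for the members, 0.128 for all tested genes and 0.104 for the tested genes at or above the level of the lowest member. These sets were not matched for level, since the median member averaged 102.8 CPM and the median tested gene 9.17 CPM. Groups did not overlap for 6 members, 2 higher and 4 lower, against 20.9% of all tested genes. The edgeR quasi-likelihood test on the reads called 4 members (Cfap126 was not among them), with 16.7% of all genes called, and DESeq2 called the same 5 as limma, with 18% of all genes called.

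The start regions of the 3 members that were called under every alternative are shown first, since the start of a gene is where transcription factors of ciliary genes bind. The 250 bases before the RefSeq start (GRCm38.p6, 5′ to 3′ on the strand of the gene) are given in lower case, and capitals mark the letters GTTGCC or, on the other strand, GGCAAC. These letters are part of the X-box, the site of the RFX factors that act on ciliary genes.
Cfap61, plus strand, chr2:145934534-145934783: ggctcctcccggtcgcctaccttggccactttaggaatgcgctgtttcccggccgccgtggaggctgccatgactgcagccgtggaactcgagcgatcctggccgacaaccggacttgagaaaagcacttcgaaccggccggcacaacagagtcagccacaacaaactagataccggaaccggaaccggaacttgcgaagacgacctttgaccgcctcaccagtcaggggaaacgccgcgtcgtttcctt
Cfap44, plus strand, chr16:44394549-44394798: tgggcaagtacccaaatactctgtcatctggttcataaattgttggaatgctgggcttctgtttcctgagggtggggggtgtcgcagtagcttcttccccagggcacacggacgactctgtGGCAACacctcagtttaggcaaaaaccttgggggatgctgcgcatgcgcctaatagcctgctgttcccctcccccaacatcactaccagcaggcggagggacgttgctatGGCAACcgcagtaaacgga
Cfap100, minus strand, chr6:90428481-90428730: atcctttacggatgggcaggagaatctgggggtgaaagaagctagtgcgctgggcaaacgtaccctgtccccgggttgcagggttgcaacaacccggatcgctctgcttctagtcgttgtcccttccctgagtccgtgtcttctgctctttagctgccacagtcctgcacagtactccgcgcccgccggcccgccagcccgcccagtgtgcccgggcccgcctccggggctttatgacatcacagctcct

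A start region of 300 bases (250 before and 50 after the RefSeq start) was at hand for 24 of the 31 members. The letters GTTGCC, searched on both strands, were found in 10 of the 24 (41.7%), beside 14.4% of 17491 protein-coding genes and 14.1% of all 27025 genes with such a region. The longer form GTTGCCATG, which contains the first, was found in 3 of 24 (Cfap161, Cfap74 and Cfap97d2) and in 0.766% of protein-coding genes. A near-complete X-box, with both arms, was found in Cfap44 and Cfap45 and in 0.246% of protein-coding genes. TATAAA, the TATA box, was in 1 of 24 (Cfap97d1) against 14.8%. TGACGTCA, the site of the testis factor CREM and its relatives, was in none, against 2.54%. Median GC content was 57.7% over the 27 listed start regions of these members and 56.3% over those of protein-coding genes. A match describes letters in this window, not a bound site, and a missing match says only that these letters are absent from it.

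The match nearest the 3′ end of each region is shown in 30 bases for the 10 members that hold it, again with the letters in capitals. Of the 5 called members, Cfap44 and Cfap74, which fell, and Cfap100, which rose, are among them.
Cfap44, chr16:44394768-44394797: ggacgttgctatGGCAACcgcagtaaacgg
Cfap74, chr4:155409191-155409220: aagcagccttccGTTGCCatggagctgcgc
Cfap100, chr6:90428454-90428483: cctgtgagaataGTTGCCttggcgtcgcaa
Cfap161, chr7:83794861-83794890: cctggtcgtcatGGCAACgaagcacgctaa
Cfap20, chr8:95434946-95434975: gaatagtcccttGGCAACcaagttccgcgc
Cfap298, chr16:90934892-90934921: actGTTGCCcctGGCAACagccacttccgc
Cfap300, chr9:8042980-8043009: aacacaaagactGGCAACctccttccattt
Cfap46, chr7:139683807-139683836: gccccgtctctaGGCAACcgctactggtcc
Cfap58, chr19:47937641-47937670: gggggcgtggcgGTTGCCaggcgaccgaag
Cfap97d2, chr8:13705858-13705887: cctgggtgccatGGCAACcgtcacatgacc

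Levels were compared between members per kb of exon length (GENCODE M21). That length merges every annotated exon of a gene, so that the order of members also depends on the annotation. The median member stood at 43.6 CPM per kb and the median tested gene at 3.24, and 30 of 31 members lay above the latter. Cfap206, a protein at the base of a radial spoke, was the highest with 268 CPM per kb in wild-type libraries and 289 in those labelled knockout. Cfap36, which binds the small GTPase Arl3, followed with 166 and 159 CPM per kb, and Cfap97d1, a small relative of Cfap97, with 113.3 and 112.6. Cfap126 and Cfap97 came next, with 82.4 and 76.9 CPM per kb under the wild-type label. Below these 5, 11 members lay close together between 40 and 65 CPM per kb, from Cfap298 at 62.2 down to Cfap45 at 43.6 over all libraries.

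The lowest members per kb under the wild-type label were Cfap221 (11.6 CPM per kb), Cfap61 (7.81), Cfap77 (5.71), Cfap54 (4.62) and Cfap97d2 (0.804). Cfap54 and Cfap221 belong with Cfap74 and Cfap46 to the same projection of the central apparatus. Cfap97d2 was measured with 107 reads or more in each library and averaged 3.95 CPM, so that even the lowest member lay above the filter of 0.5 CPM.

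**Figure D1:**
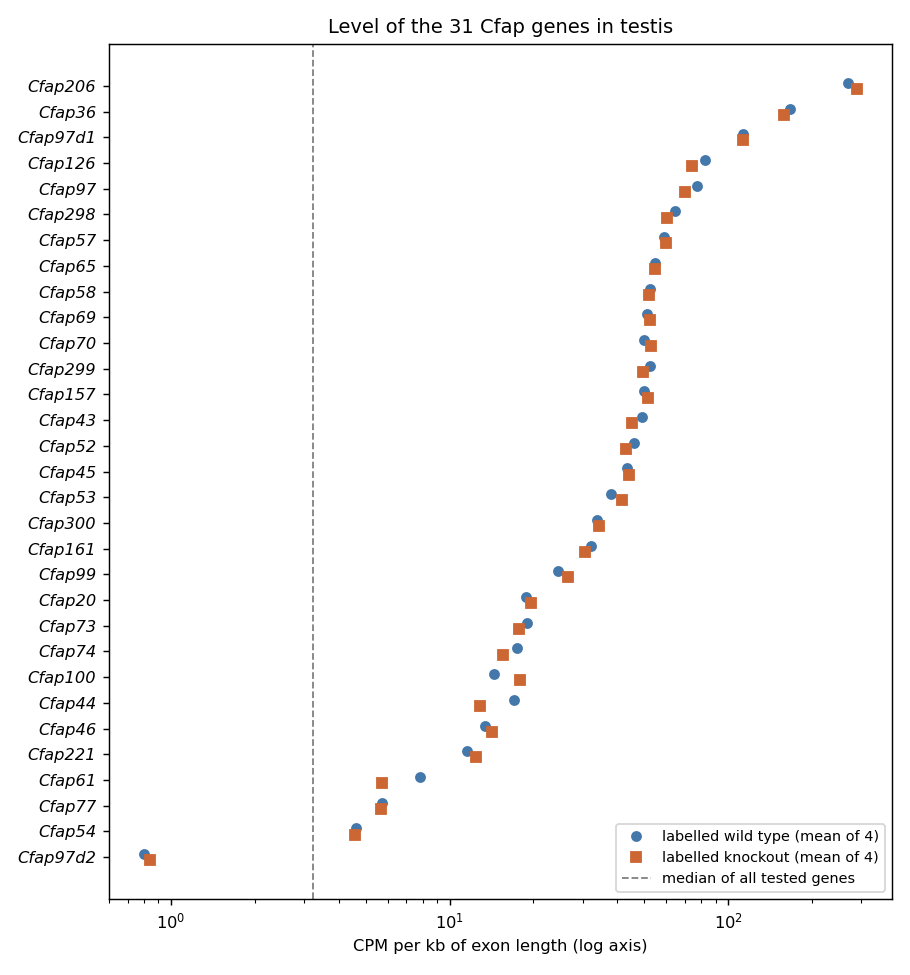
Mean CPM per kb of exon length of the 31 Cfap genes under the wild-type label (circles) and the knockout label (squares), n = 4 libraries each, on a log axis, with the median of all tested genes as a dashed line at 3.24. All members but Cfap97d2 lie right of the line, and both marks of most genes nearly coincide.

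Among the radial spoke proteins, Cfap61 (ENSMUSG00000037143; chr2:145934784-146215039, plus strand, GRCm38) belongs to a calmodulin-binding complex at the base of a spoke, and mice that lack it have malformed sperm tails. It stood at 83.9, 78.6, 80.0 and 88.9 CPM in wild-type replicates 1 to 4. In knockout replicates 1 to 4 it stood at 64.0, 56.0, 61.0 and 61.8 CPM. Every library labelled knockout was below every library labelled wild type, with a gap between 64.0 and 78.6 CPM. The mean went from 82.8 ± 4.61 to 60.7 ± 3.37 CPM (SD, n = 4), 1.36-fold lower, with a log2 fold change of -0.45 (SE 0.06, limma adjusted p = 0.00012). Its exons share 57 bases with those of Crnkl1 on the other strand, a splicing factor gene that stood at 42.5 ± 3.18 and 39.0 ± 0.722 CPM (limma adjusted p = 0.21). Whether the counting used strand is not stated, so reads from that overlap cannot be assigned.

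Cfap206, the other spoke protein among the members, went the other way without passing the test. Its values were 678, 673, 685 and 626 CPM in wild-type replicates 1 to 4 and 702, 751, 687 and 732 CPM in knockout replicates 1 to 4. The groups did not overlap, but by less than 2 CPM. The limma adjusted p was 0.14, with a log2 fold change of 0.11 and a 95% interval for the ratio of 1.004 to 1.16.

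Of the 5 inner dynein arm regulators, limma called 1 higher (Cfap100) and 1 lower (Cfap44), beside 8.62% and 8.32% of all tested genes. Cfap44 (ENSMUSG00000071550; chr16:44394796-44482428, plus strand, GRCm38), a large protein with WD repeats, forms with Cfap43 the tether that holds an inner arm dynein head to its doublet. It stood at 140.3, 141.7, 151.9 and 136.8 CPM in wild-type replicates 1 to 4 and at 103.3, 99.4, 110.7 and 117.5 CPM in knockout replicates 1 to 4. The lowest wild-type library lay above the highest knockout library by more than the SD of either group. The mean fell from 142.7 ± 6.51 to 107.7 ± 8.03 CPM, 1.32-fold, with a log2 fold change of -0.41 (SE 0.06, limma adjusted p = 0.00029). No exon of another annotated gene overlaps those of Cfap44.

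Cfap43 stood at 363, 332, 371 and 316 CPM in wild-type replicates 1 to 4 and at 310.4, 319.9, 321.8 and 317.8 CPM in knockout replicates 1 to 4. The groups overlapped through wild-type replicate 4, and the gene did not pass the test (log2 fold change -0.12, limma adjusted p = 0.15). Its knockout libraries were tight, at a CV of 1.56%, and its wild-type libraries wider, at 7.47%. The exons of Cfap43 share 246 bases, summed, with those of Itprip and Gm22240 on the same strand.

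Cfap100 (ENSMUSG00000048794; chr6:90403479-90428797, minus strand, GRCm38) is a coiled-coil protein that works with Cfap73 in the complex that modifies inner dynein arms. It stood at 64.3, 61.2, 56.1 and 56.8 CPM in wild-type replicates 1 to 4 and at 76.6, 75.1, 74.5 and 68.7 CPM in knockout replicates 1 to 4. All libraries labelled knockout lay above all libraries labelled wild type. The mean rose from 59.6 ± 3.84 to 73.7 ± 3.46 CPM, 1.24-fold, with a log2 fold change of 0.31 (SE 0.06, limma adjusted p = 0.0025). Cfap100 was the only member called higher. Its exons share 12 bases with Zxdc on the other strand, which stood at 10.4 ± 0.733 and 10.1 ± 1.03 CPM.

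Cfap73 was much lower in CPM, at 17.5 ± 1.3 in the wild-type libraries and 16.4 ± 1.94 in the knockout libraries (log2 fold change -0.10, limma adjusted p = 0.50). Cfap57, which helps to place inner dynein arms, stood at 235.8 ± 13.3 and 240.4 ± 13.9 CPM (limma adjusted p = 0.78). The 5 genes of the group had 1 higher, 1 lower and 3 not called, with a median log2 fold change of -0.10.

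**Figure D2:**
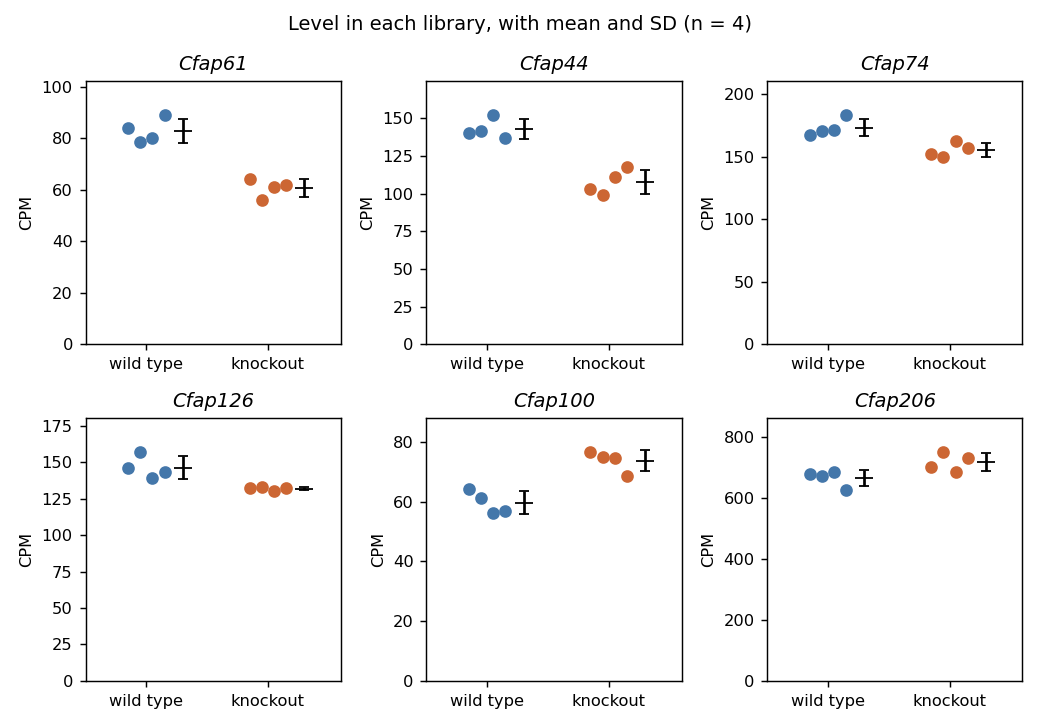
CPM of 6 Cfap genes in each of the 8 libraries (points; wild-type label left, knockout label right), with mean and SD (n = 4) beside them and each axis starting at 0. Cfap61 and Cfap44 separate most widely between the labels, Cfap74 and Cfap126 are lower by 10.2% and 9.8%, Cfap100 is higher, and Cfap206 is separated by less than 2 CPM.

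Since proteins of one complex are often discussed together, 4 ratios of CPM per kb were formed within each library, which makes them independent of library scaling. The pairs were chosen after the values were seen, around genes already called, so the ratios are a description with no test. Cfap44 over Cfap43 was 0.325, 0.359, 0.344 and 0.364 in wild-type replicates 1 to 4 and 0.279, 0.261, 0.289 and 0.310 in knockout replicates 1 to 4. The means were 0.348 ± 0.0174 and 0.285 ± 0.0206. All 4 libraries labelled knockout lay below all 4 labelled wild type.

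Cfap61 was set against 2 proteins of its complex, which later names count among the Cfap proteins but which the table's symbols list as Maats1 and Wdr66. Over Maats1 the ratio went from 0.498 ± 0.0658 to 0.357 ± 0.0376, and over Wdr66 from 0.672 ± 0.0503 to 0.438 ± 0.0302. Both ratios were lower in all 4 libraries labelled knockout. Maats1 itself averaged 71.6 ± 5.40 and then 72.8 ± 5.06 CPM, with a limma adjusted p of 0.84. Wdr66 averaged 104.3 ± 2.41 and then 117.3 ± 8.71 CPM, with a limma adjusted p of 0.055 that ran from 0.018 to 0.16 over the alternatives, so that part of the second ratio came from Wdr66. Cfap100 over Cfap73 went from 0.764 ± 0.0752 to 1.02 ± 0.163, with overlap between the groups.

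**Figure D3:**
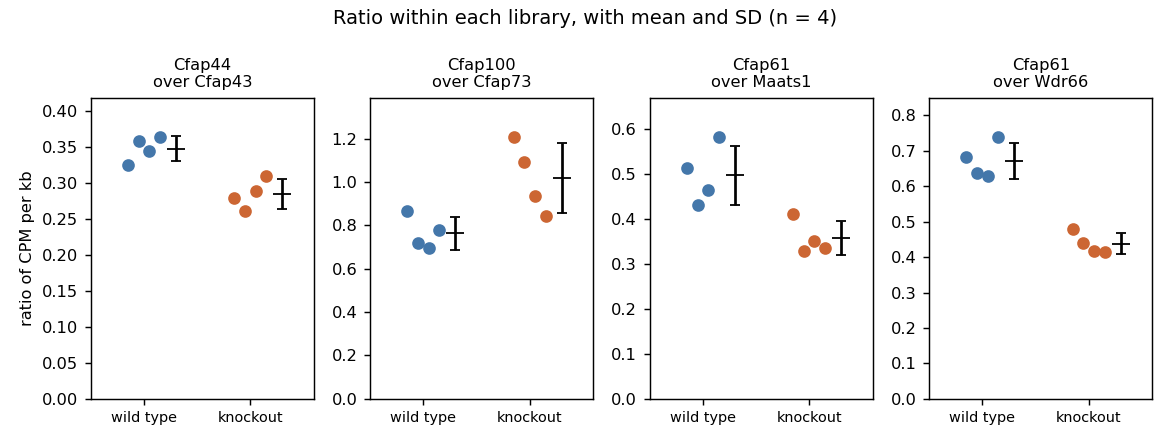
Ratio of CPM per kb between genes of one axonemal complex within each library (points), with mean and SD (n = 4) and axes from 0. For Cfap44 over Cfap43 and for Cfap61 over Maats1 and over Wdr66 all libraries labelled knockout lie below all labelled wild type, while Cfap100 over Cfap73 overlaps.

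Of the 7 members of the central apparatus, 1 was called lower and none higher, with a median log2 fold change of 0.03. Among all tested genes limma called 8.32% lower and 8.62% higher. Cfap74 (ENSMUSG00000078490; chr4:155409190-155466823, plus strand, GRCm38) stood at 167.3, 170.1, 171.6 and 183.0 CPM in wild-type replicates 1 to 4 and at 152.4, 149.5, 162.9 and 156.6 CPM in knockout replicates 1 to 4. The groups did not overlap, by a margin of less than 5 CPM. The mean fell from 173.0 ± 6.89 to 155.3 ± 5.82 CPM (log2 fold change -0.15, SE 0.05, limma adjusted p = 0.039). The call was lost in 9 of 19 alternatives, among them the leaving out of any 1 library except knockout replicate 3, where the adjusted p lay between 0.056 and 0.11. The exons of Cfap74 share 453 bases with those of 5830444B04Rik on the other strand. That gene stood at 1.34 ± 0.0887 and 1.22 ± 0.164 CPM under the wild-type and knockout labels (limma adjusted p = 0.65).

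Cfap65, the most abundant central apparatus gene by CPM, whose loss shortens sperm tails, stood at 428 ± 21.9 and 426 ± 12.6 CPM. Its 95% interval for the ratio of knockout to wild-type label was 0.928 to 1.07. Cfap69, also needed for the sperm tail, stood at 403 ± 24.6 and 413 ± 20.4 CPM. The other central apparatus genes were not called. Cfap46 stood at 124.0 ± 7.22 and 131.0 ± 2.92 CPM, Cfap221 at 33.7 ± 2.19 and 36.4 ± 0.595 CPM, and Cfap99, another central apparatus gene, at 51.8 ± 2.30 and 56.6 ± 3.65 CPM (limma adjusted p = 0.31, 0.22 and 0.17). Cfap54 stood at 67.7 ± 3.99 and 67.1 ± 4.41 CPM.

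Among the 7 proteins of the inside of the doublet microtubules, Cfap126, also known as Flattop, was called lower and none was called higher. The shares over all tested genes were 8.32% lower and 8.62% higher. Cfap126 (ENSMUSG00000026649; chr1:171113918-171126967, plus strand, GRCm38) stood at 145.8, 156.9, 139.0 and 143.1 CPM in wild-type replicates 1 to 4 and at 132.2, 132.8, 130.1 and 132.4 CPM in knockout replicates 1 to 4. The libraries labelled knockout agreed within 3 CPM, and all lay below the lowest wild-type library. The mean fell from 146.2 ± 7.66 to 131.9 ± 1.19 CPM (log2 fold change -0.15, SE 0.05, limma adjusted p = 0.049). This call lay at the threshold and was lost in 13 of 19 alternatives, with adjusted p from 0.030 to 0.17. These included leaving out any 1 library except wild-type replicate 3.

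Cfap45, the most abundant gene of this group by CPM, stood at 246.8 ± 26.7 and 252.2 ± 5.98 CPM. Cfap52 and Cfap53, which also serve the placement of organs through embryonic cilia, stood at 106.2 ± 4.23 and 99.3 ± 5.36 CPM and at 98.97 ± 8.37 and 108.2 ± 8.30 CPM (limma adjusted p = 0.24 and 0.23). Cfap20, Cfap161 and Cfap77 did not pass either, with log2 fold changes between -0.06 and 0.06. The 7 genes had a median of -0.0096.

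For the 2 genes of dynein arm assembly, limma, edgeR and DESeq2 gave no call, and neither gene had an unadjusted p under 0.05. Cfap298 averaged 102.1 ± 3.56 and then 95.5 ± 7.91 CPM, with a limma adjusted p of 0.30, and Cfap300 averaged 54.0 ± 2.16 and 54.9 ± 1.73 CPM. In knockout replicates 1 to 4 Cfap298 stood at 86.7, 91.3, 100 and 104.0 CPM, so that the first 2 lay below all wild-type libraries and the others inside their range of 98.6 to 106.5.

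The remaining 8 members have other or less defined places in the cilium, and limma, edgeR and DESeq2 called none of them; none had an unadjusted p under 0.05. Cfap36 was the most abundant of these by CPM, at 456 ± 34.0 and 435 ± 40.7 CPM. Cfap97 stood at 397 ± 41.6 and 359 ± 30.5 CPM (log2 fold change -0.14, limma adjusted p = 0.22), the log2 fold change farthest from 0 among members that were not called. Cfap58, a coiled-coil protein of the sperm tail, stood at 183.1 ± 21.1 and 181.7 ± 7.35 CPM, and Cfap157, a basal body protein of spermatids, at 88.4 ± 4.10 and 91.6 ± 1.69 CPM. Cfap70 and Cfap299 had log2 fold changes of 0.09 and -0.09. Cfap97d1 stood at 90.4 ± 7.97 and 89.8 ± 10.8 CPM and Cfap97d2 at 3.86 ± 0.802 and 4.03 ± 0.439 CPM.

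**Figure D4:**
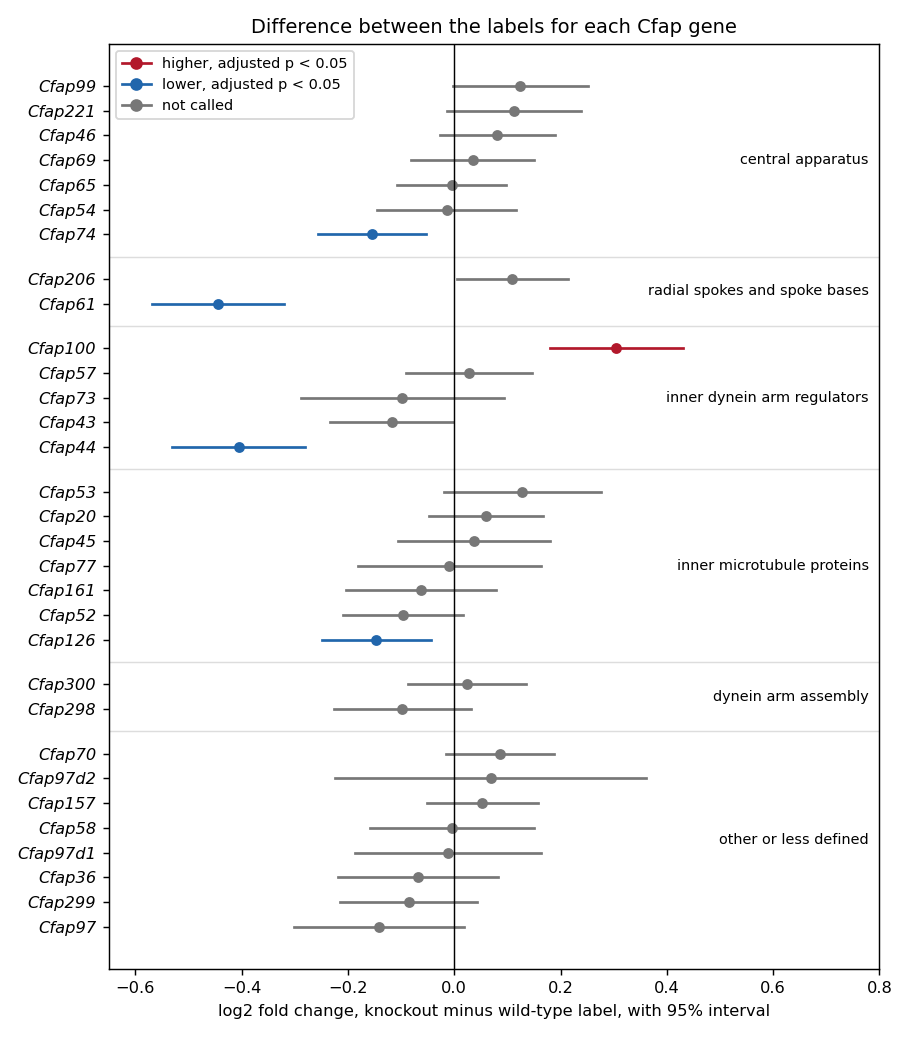
Log2 fold change of each Cfap gene (knockout minus wild-type label) with its 95% interval from limma, by structure, where blue is lower, red is higher and gray is not called. The points of Cfap61 at -0.45 and Cfap44 at -0.41 lie below every gray interval. Cfap100 at 0.31 lies above every gray point but within the interval of Cfap97d2, -0.22 to 0.36. Cfap74 and Cfap126 lie near -0.15.

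A miss of the threshold does not show that a gene was the same under both labels, so the intervals are given. For all 26 members that were not called, the 95% interval of the ratio of knockout to wild-type label lay within 1.5-fold of equality in both directions. The lowest bound was 0.812, of Cfap97, and the highest was 1.28, of Cfap97d2.

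The 5 called members lie on 5 different chromosomes, none of them with Kpna2 on chromosome 11. The 3 members of chromosome 11 (Cfap36, Cfap52 and Cfap97d1) lie 77.7, 39.0 and 5 Mb below Kpna2 in GRCm38 and were not called. Within 500 kb of Cfap44, none of 11 other tested genes was called by limma, and within 500 kb of Cfap61, 1 of 7 was (Rin2, lower). Within 500 kb of Cfap100, 1 of 13 was called, higher. Around Cfap74, 3 of 40 genes were higher and 4 lower, and around Cfap126, 2 of 31 were higher and 2 lower. Over all tested genes limma called 16.9%, 8.62% higher and 8.32% lower.

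Further genes were taken from 6 lists, 4 of axonemal parts, 1 of assembly factors and 1 of transcription factors of ciliary genes. Of 113 tested genes, limma called 7 higher and 10 lower (15% against 16.9% of all tested genes), with a median log2 fold change of -0.0039. Without the transcription factors, 17 of 100 were called (17%). Among 25 genes of the dynein arms, limma called 1 higher and 3 lower. Dnah8, a heavy chain of the sperm tail, fell from 1646 ± 122 to 1071 ± 93.0 CPM, and the low Dnah11 from 4.53 ± 0.274 to 1.53 ± 0.133 CPM. Dnah5 rose from 2.75 ± 0.392 to 7.49 ± 5.59 CPM, where knockout replicate 1 stood at 15.7 and the others at 3.32 to 5.62 CPM. Its log2 fold change was 1.08, and 0.67 without knockout replicate 1. That call was lost without any 1 of the wild-type libraries (limma adjusted p = 0.052 to 0.079) and without the variance trend.

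Of 27 genes of the radial spokes and nexin-dynein links, limma called 3 higher and 3 lower (22.2%). Over all tested genes it called 16.9%, 8.62% higher and 8.32% lower. Rsph3b, a spoke protein, rose 1.52-fold from 96.2 ± 4.67 to 145.8 ± 19.8 CPM, and Drc3, of the nexin-dynein link, from 73.9 ± 1.02 to 92.2 ± 4.82 CPM. Rsph10b fell from 67.1 ± 2.21 to 55.8 ± 3.29 CPM and Rsph14 from 23.2 ± 1.85 to 18.2 ± 1.17 CPM. Rsph3a and Rsph3b are close copies, so that their split is uncertain. Of the members in this structure, Cfap61 was called lower and Cfap206 was not called.

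Of 12 further central pair genes, Mycbpap rose from 306 ± 3.92 to 374 ± 9.92 CPM and the kinesin gene Kif9 fell from 353 ± 14.9 to 317 ± 12.6 CPM, the latter not called in 7 of 19 alternatives, among them the leaving out of wild-type replicate 1, 2 or 3 or knockout replicate 1 or 3. Of 21 further proteins of the inside of the doublets, Ribc1 and Efhc2 rose, and Tekt4, a tektin, fell from 324 ± 16.0 to 271 ± 7.26 CPM, as did Eny2. Ribc1, Efhc2 and Eny2 lost their calls in 5, 6 and 6 of 19 alternatives, in each case without the variance trend and without several single libraries. For Ribc1 these were wild-type replicates 1, 3 and 4 and knockout replicate 2, for Efhc2 wild-type replicates 1, 2 and 4 and knockout replicates 1 and 2, and for Eny2 wild-type replicates 2 and 3 and knockout replicates 1, 3 and 4. Of 15 assembly factors of the dynein arms, Lrrc6 alone was called, lower, from 113.3 ± 8.70 to 82.3 ± 5.35 CPM (limma adjusted p = 0.00025). The shares called by limma in these lists were, in order, 16.7%, 19.0% and 6.67%, beside 16.9% of all tested genes.

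Among 13 tested transcription factors that act on ciliary or tail genes, limma and edgeR called none and DESeq2 called 1, with 2 at an unadjusted p under 0.05. The 4 factors given here were named after their values were seen. Rfx1, of the family that binds the X-box, stood at 152.0 ± 9.77 and 174.3 ± 17.4 CPM (log2 fold change 0.19, adjusted p = 0.067 by limma, 0.063 by edgeR and 0.037 by DESeq2). Its relative Rfx7, the other factor with an unadjusted p under 0.05, was at 21.8 ± 0.668 and 19.6 ± 1.45 CPM (limma adjusted p = 0.16). Rfx2 and Foxj1, the best known of the list, stood at 407 ± 11.4 and 421 ± 25.7 CPM and at 92.5 ± 12.8 and 87.6 ± 6.03 CPM (limma adjusted p = 0.59 and 0.63).

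The germ cells that express Cfap genes were compared through their markers. Of 10 markers of round spermatids and 10 of elongating spermatids, limma, edgeR and DESeq2 called none, with 1 in each list at an unadjusted p under 0.05. The summed level of the first was 2272 to 2393 CPM in wild-type libraries and 2412 to 2474 in knockout libraries. These sums did not overlap, and the difference was not tested. The summed level of the elongating spermatid markers was 29853 to 31360 and 26876 to 33739 CPM. Of 10 spermatocyte markers, limma called 1 higher and 2 lower, with sums of 1461 to 1523 and 1420 to 1608 CPM. Of 10 markers of spermatogonia it called 2 lower (Uchl1 and Dmrt1) and none higher, with sums of 132 to 144 and 122 to 137 CPM. Over all tested genes it called 16.9%. These defining genes of the testis were present in every library. In whole tissue, fewer cells of a type and less RNA per cell cannot be told apart.

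Summed over the 31 members, the Cfap level was 5298, 5310, 5510 and 5053 CPM in wild-type replicates 1 to 4 and 5038, 5248, 5184.5 and 5415 CPM in knockout replicates 1 to 4. The group means were 5293 ± 187 and 5221 ± 156 CPM, and the groups overlapped. On the log2 scale, the mean deviation of the members from the wild-type mean was -0.07, -0.04, -0.02 and 0.03 in knockout replicates 1 to 4, against -0.04 to 0.03 under the wild-type label. The elongating spermatid markers had -0.14, -0.04, 0.06 and 0.11 in the same 4 libraries, and the part of these cells in the Cfap values was not tested.

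Among markers of somatic cells, the peritubular myoid and Leydig lists had the largest shares of called genes. The share over all tested genes was 16.9%, with 8.62% higher and 8.32% lower, and the Sertoli list, at 20%, lay near it. Peritubular myoid markers had 5 of 7 lower and none higher, with sums of 388 to 458 CPM in wild-type libraries and 323 to 343 in knockout libraries. Leydig markers had 4 of 8 lower and 2 higher, with sums of 1036 to 1223 and 679 to 1114 CPM. Sertoli markers had 2 of 10 lower and none higher, with sums of 1416 to 1509 and 1230 to 1429 CPM. Endothelial markers had 2 of 7 lower, and of 7 macrophage markers limma, edgeR and DESeq2 called none, with 1 at an unadjusted p under 0.05. Their part in the 5 calls was not tested. Efferent ducts carry ciliated cells with Cfap genes of their own. Of 13 markers of epididymis and efferent ducts, 4 were among the rows used here, summing to 10.8 to 12.4 CPM in wild-type libraries and 13.5 to 15.9 in knockout libraries, with Rnase10 called higher and Aqp1 lower.

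**Figure D5:**
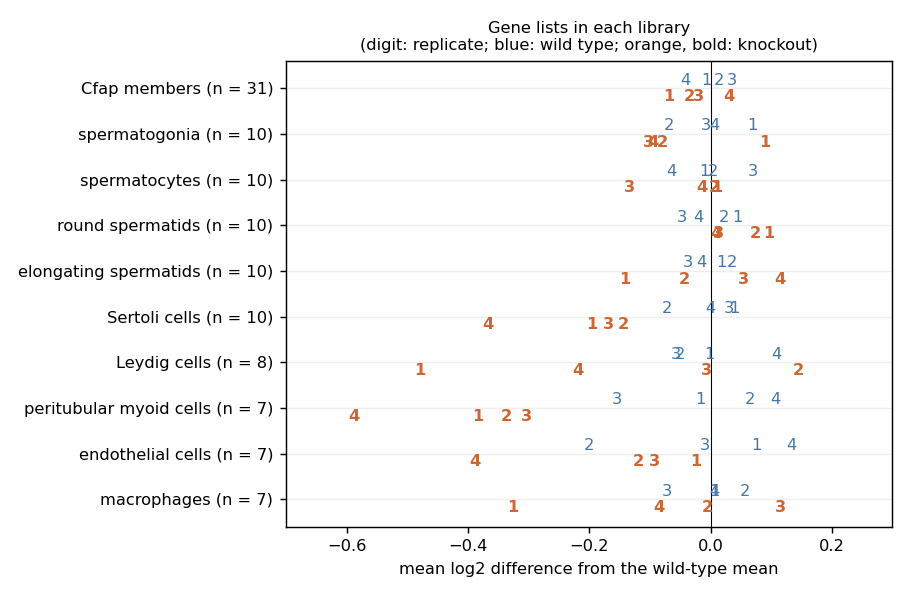
Mean log2 difference from the wild-type mean for the 31 Cfap genes and for 9 lists of cell type markers in each library; digits are replicate numbers, blue for the wild-type label and bold orange for the knockout label. The Cfap genes stay between -0.07 and 0.03, while the peritubular myoid markers lie at -0.59 to -0.30 in the libraries labelled knockout.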

How the data were processed

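The authors deposited 1 matrix of per-library scaled signal, named CPM in the file, for 24988 Ensembl genes and 8 libraries. Trimmomatic, Subread, featureCounts and GRCm39 (mm39) are named, per the submitters' processing notes; versions and strand use are not stated. Columns named control and kpn were matched to sample titles by number, taking control as wild type. Dividing each column by its lowest nonzero value gave whole reads (tolerance 0.01) for 100% of values. Columns summed to 990244 to 1025489, so the scaling was not by the column's read total alone. edgeR's TMM effective library sizes over those implied by the deposited values were 0.9975 to 1.002, though no source used here names that step. The design had assumed plain CPM; the test on the log scale was kept.

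limma 3.58.1 (R 4.3.3, trend) was run on log2(CPM + 0.5) for 22027 genes averaging 0.5 CPM or more. The 19 alternatives were pseudocounts of 0.1 and 2, no filter, a filter at 2 CPM, median ratio scaling, quantile normalization, no trend, library weights, a replicate block, leaving out each library, edgeR 4.0.16 (TMM, 3685 genes called) and DESeq2 1.42.0 on the recovered reads. The script was tested on simulated data. Symbols, exon lengths and positions came from GENCODE M21 (GRCm38) and start regions from RefSeq (GRCm38.p6), with no coordinates converted. Genes were named by rule: called members, the 5 highest and 5 lowest per kb, the 4 uncalled members of smallest p in each direction, the most abundant of each structure, and up to 2 called genes per direction of each partner list. Other members are given for completeness. Members and lists were chosen with earlier results of these data known. The chi-square of reads per degree of freedom between libraries of a group was 4.60 to 11.6, above sampling noise.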

Additional observations from a re-analysis of the deposited data

Results flagged for a closer look

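In 64 groups of 4 libraries (31 Cfap genes and Kpna2, each under 2 labels) 2 held a library far from the other 3, and chance gives about 1 in 20 groups. Cfap54, of the central apparatus, stood at 73.6 CPM in wild-type replicate 3 and at 64.9 to 66.2 CPM in the other libraries of that label. Cfap77, of the inside of the doublets, stood at 16.1 CPM in knockout replicate 1 and at 14.4 to 14.5 CPM in the other libraries of that label. Neither gene was called.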

How the results depend on the processing

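Cfap61, Cfap44 and Cfap100 kept their direction and their call in all 19 alternatives, with adjusted p of at most 0.0031, 0.0062 and 0.018. The count of called Cfap genes was 5, and 3 without the variance trend and 3 with the replicate block, the fallers going from 4 to 2 in both. Without 1 library it was 3 to 4, with 2 to 3 fallers, and the lost calls were those of Cfap74 and Cfap126. The share of all genes called was 16.9% in the main test, 14.5% without the trend and 15.6% with the block. Without 1 library that share was 12.7% to 16.2%. Called partner genes numbered 17, and 10 without the trend. The cause was not tested. Replicate numbers did not pair the libraries: deviations of same-numbered libraries correlated at -0.03 to 0.04. The log2 fold change of Kpna2 ran from 0.38 to 0.55 without 1 library. Uncalled genes near 0 changed sign: Cfap65 (0.0087 with library weights, 0.00015 with median ratio scaling) and Cfap77 (0.0087 with quantile normalization). Without 1 library Cfap65 ran from -0.026 to 0.030, Cfap77 from -0.061 to 0.035, Cfap45 from -0.030 to 0.082, Cfap54 from -0.039 to 0.032, Cfap97d1 from -0.087 to 0.044, Cfap97d2 from -0.0038 to 0.175 and Maats1 from -0.019 to 0.070. Counting also 3 genes with a Cfap name in RefSeq, an alternative chosen after seeing the data, left 5 calls. Members had 107 to 26270 reads per library.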

Other observations

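The 3 genes that RefSeq names Cfap47, Cfap410 and Cfap20dc, outside the rule by their older symbols in the table used for names, stood in the same range. Cfap47, of the central apparatus, was at 14.1 ± 3.16 and 16.7 ± 1.51 CPM under the wild-type and knockout labels (limma adjusted p = 0.20). Cfap410 was at 28.8 ± 0.431 and 26.8 ± 2.05 CPM (limma adjusted p = 0.29), and Cfap20dc at 15.2 ± 1.07 and 13.7 ± 0.608 CPM (limma adjusted p = 0.24).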
